A study of Mus musculus with 12 samples.

Results

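The genes described here build, coat and empty the lipid droplets of the liver. They were 10 genes taken by symbol: the droplet coat proteins Plin2, Plin3 and Plin5, the droplet formation proteins Fitm1 and Fitm2, the lipases Pnpla2 and Pnpla3, and the lipase regulators Abhd5, G0s2 and Hilpda. All 10 were found among the 46078 genes of the count table, and all 10 were among the 13054 genes with enough counts to be tested. Liver RNA was sequenced from 12 male C57BL/6 mice (C57BL/6J in the study's methods) aged 21 weeks with diet-induced obesity, 4 in each of 3 groups. Sham-Ad lib mice had a sham operation and ate without restriction, Sham-WM mice had the same sham operation followed by food restriction to match the weight of the operated animals, and VSG mice had a vertical sleeve gastrectomy, which removes most of the stomach. All 3 groups were fed a diet with 60% of its energy from fat and their livers were taken at day 16, following a fast of 5 hours. The study asked which changes in the liver follow sleeve gastrectomy beyond those of weight loss, so each treatment was compared with Sham-Ad lib and VSG was compared with Sham-WM.

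A lipid droplet is a core of triglyceride inside a single layer of phospholipid that carries a coat of perilipins. Droplets form in the endoplasmic reticulum with the help of the Fitm proteins, and they are emptied when adipose triglyceride lipase, the product of Pnpla2, cuts the first fatty acid from a triglyceride. Abhd5 (CGI-58) activates that lipase, G0s2 and Hilpda inhibit it, and perilipins govern its access to the droplet. Pnpla3, a relative of Pnpla2, coats hepatocyte droplets and is known as a gene switched on with lipogenesis in the fed liver.

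The libraries held from 15122520 to 19384076 counted reads. Levels are given as CPM, that is counts scaled to library size, with TMM factors that correct for the composition of each library. Libraries were placed in groups by the animal number that the sample title shares with the library name. A second label field pairs titles with libraries in another order. Grouped by that field, 0 of the 10 genes and 0 of the 13054 passed the test in any comparison, with 465 genes at an unadjusted p under 0.05 for VSG against Sham-Ad lib, 715 for Sham-WM against Sham-Ad lib and 158 for VSG against Sham-WM, so every difference below rests on the animal numbers. The running numbers in the library names also form 1 block per group, and an effect of that order cannot be told apart from treatment. Each library is labelled as 1 mouse, so p-values measure the spread between mice.

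Tissue markers were read first. The 8 hepatocyte markers summed to between 106190 and 119920 CPM in Sham-Ad lib and between 120420 and 146980 with Sham-WM. After VSG the sum was 84427 CPM in mouse 1F, 82039 in 8F and 86516 in 11F, each below every sham library. In VSG mouse 18F it was 121990. Alb, the most abundant of the 8, averaged 64000 CPM after VSG and 106080 with Sham-WM, while Fgb averaged 7312 and 3291. Markers of other cells moved with VSG: 10 Kupffer cell and macrophage markers summed to 186–598 CPM in Sham-Ad lib, 165–280 with Sham-WM and 609–1696 after VSG, and 10 neutrophil markers to 1.35–19.8, 2.66–3.77 and 36.3–1057. The part that this played in the droplet genes was not tested. In bulk tissue, fewer cells of a type and less RNA per cell cannot be told apart. Of the 10 adipocyte markers, Lep was at 0 in every library, which allows up to 0.198 CPM in the shallowest. Adipoq, Plin1 and Retn had at most 1 count per library, and Acvr1c had at most 5. Counts per library ran from 91 to 219 for Fabp4, 141 to 495 for Lipe and 45 to 188 for Adrb3. They ran from 22 to 588 for Cidec and from 2 to 183 for Cfd. The summed adipocyte list was 54.2–73.4 CPM in Sham-Ad lib, 19.7–31.8 with Sham-WM and 39.8–53.6 after VSG.

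The promoters of both lipase genes are printed because these 2 genes had the largest differences among those of the 10 that passed the test, and moved in opposite directions in Sham-WM. They are RefSeq sequences on GRCm38.p6, from 250 bases before to 20 bases after the annotated start, and capitals mark the 20 bases after the RefSeq start. GENCODE, used for gene positions here, starts Pnpla3 after the printed window and Pnpla2 within its capitals. Pnpla3 lies on the plus strand, at chr15:84167566-84167835, and Pnpla2 on the plus strand, at chr7:141454938-141455207.

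Pnpla3: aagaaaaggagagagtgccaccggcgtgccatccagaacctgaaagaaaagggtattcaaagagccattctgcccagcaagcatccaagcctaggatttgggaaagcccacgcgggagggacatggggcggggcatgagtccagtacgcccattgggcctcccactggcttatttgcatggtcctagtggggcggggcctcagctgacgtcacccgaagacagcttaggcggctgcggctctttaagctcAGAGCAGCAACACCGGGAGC

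Pnpla2: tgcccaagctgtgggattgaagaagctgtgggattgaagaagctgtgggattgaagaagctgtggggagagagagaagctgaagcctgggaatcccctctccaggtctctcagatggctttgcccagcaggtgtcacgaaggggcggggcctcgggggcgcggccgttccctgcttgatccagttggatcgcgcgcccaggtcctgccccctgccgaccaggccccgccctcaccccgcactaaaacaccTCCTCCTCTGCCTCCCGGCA

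RefSeq lists 12 promoters for the 10 genes, of 32851 in the table, each from 250 bases before to 50 after a start. They were searched on both strands for 5 motifs. The DR1 element, the direct repeat read by PPAR receptors, was in none of the 12 and in 0.381% of all promoters. The sterol response element TCACNCCAC was in none of the 12 and in 1.24% of all, and the TATA box TATAAA was in none of the 12 and in 13.6% of all. The E-box CACGTG was in the Plin2 promoter alone among the 12 and in 7.15% of all. The hypoxia response core ACGTG, which lies inside that E-box, was in the promoters of Plin2 and Hilpda and in 19.6% of all. These matches are letters in a window, and the absence of a match says nothing of the factor. The Plin2 stretch (minus strand, chr4:86670040-86670093) spans its start site, and the Hilpda stretch (plus strand, chr6:29272553-29272617) lies before the second of 2 annotated starts. Capitals mark the motif.

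Plin2: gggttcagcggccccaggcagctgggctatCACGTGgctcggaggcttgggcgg

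Hilpda: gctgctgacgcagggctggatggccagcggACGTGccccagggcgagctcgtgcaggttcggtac

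Levels of different genes were compared per length, as CPM per kilobase of exon (RPKM). Plin2, the main coat protein of hepatocyte droplets, was the most abundant of the 10 in every group, at a mean of 146 RPKM in Sham-Ad lib, 121 with Sham-WM and 86.3 after VSG. G0s2 came second, at 119, 78.1 and 48.5 RPKM, but overlapped in range with Plin2 in Sham-Ad lib and VSG, and with Pnpla2 in VSG. In Sham-Ad lib the order went on with Pnpla2 at 30.8, Fitm1 at 26.7, Fitm2 at 19.6, Plin5 at 14.8 and Plin3 at 12.8 RPKM, and each neighbouring pair among these overlapped in range. Abhd5 (4.04 RPKM), Hilpda (1.66) and Pnpla3 (0.265) followed, each below the range of the gene before it. In Sham-WM, Pnpla2 dropped to rank 5 at 14.7 RPKM, below Fitm1 at 21.8 and Plin5 at 21.5, and Pnpla3 climbed from rank 10 to rank 8 at 5.69 RPKM, in range of Abhd5 at 4.01. In VSG livers Pnpla2 was at rank 3 again with 28.2 RPKM, in range of G0s2 and Fitm1, and Pnpla3 at rank 10 again with 0.203.

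**Figure D1:**
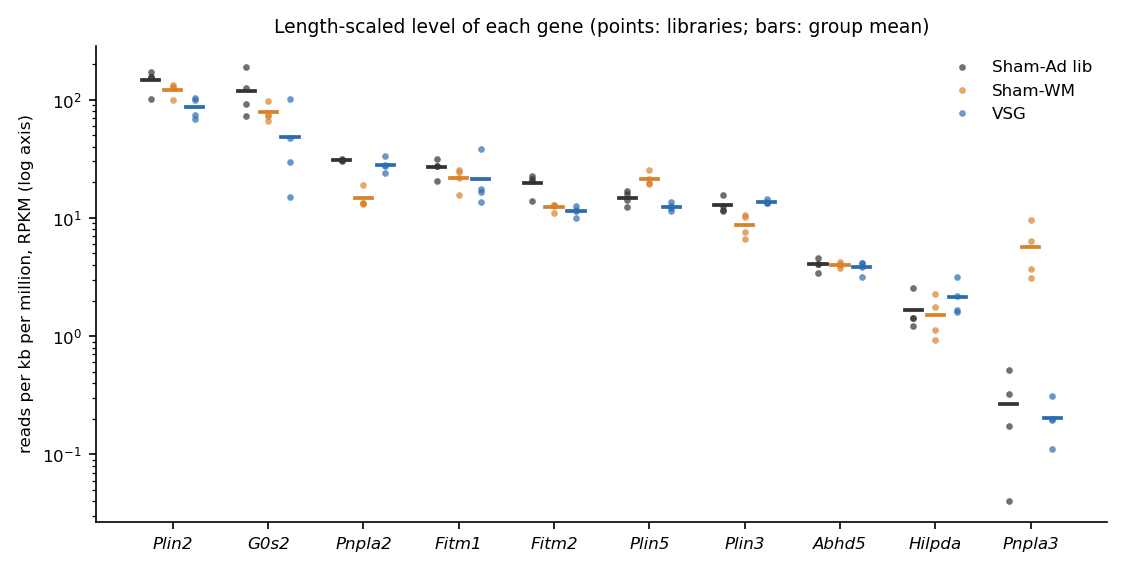
Length-scaled level (RPKM, log axis) of each of the 10 genes in each library, with bars at the mean of the 4 libraries of a group. Plin2 and G0s2 have the highest group means, though G0s2 overlaps with Pnpla2 in VSG. Pnpla3 and Plin5 have Sham-WM libraries above all others, Pnpla3 at a mean of 5.69 RPKM against 0.265 in Sham-Ad lib and 0.203 in VSG.

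Pnpla3 (chr15:84167837-84187236 on mm10, plus strand) differed most between groups. It had 9 counts in Sham-Ad lib mouse 3F, 15 in 4F, 5 in 6F and 1 in 10F. In Sham-WM it had 195 counts in mouse 2F, 93 in 9F, 291 in 15F and 101 in 16F, and in VSG 8 counts in mouse 1F, 6 in 8F, 4 in 11F and 3 in 18F. All 4 Sham-WM libraries lay far above all 8 others, and the other groups overlapped at the edge of detection. As CPM the means were 0.410 ± 0.319 in Sham-Ad lib, 8.81 ± 4.61 with Sham-WM and 0.314 ± 0.126 after VSG (SD, n = 4 each). Sham-WM was 21.5-fold above Sham-Ad lib, a log2 fold change of 4.37 ± 0.51 (SE) with a 95% interval of 3.27 to 5.48 (edgeR adjusted p = 0.000348). By size that was the 12th of the 13054 differences tested. Pnpla3 met the count filter through its Sham-WM libraries, and the few counts elsewhere leave the fold size and this rank imprecise. It was not tested where 10 counts were required in every library, nor in the fit of VSG and Sham-Ad lib alone. VSG was 28.0-fold below Sham-WM (log2 -4.78 ± 0.54, edgeR adjusted p = 0.000169). Between VSG and Sham-Ad lib the log2 fold change was -0.41, with an interval of -1.81 to 0.99 that leaves its direction undetermined at this depth.

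Pnpla2 (chr7:141455198-141460743, plus strand), the lipase that opens triglyceride breakdown, went the other way. In Sham-Ad lib it stood at 91.1 CPM in mouse 3F, 93.5 in 4F, 92.7 in 6F and 94.6 in 10F, an SD of 1.58% of the mean. In Sham-WM it stood at 39.6 CPM in mouse 2F, 56.9 in 9F, 40.8 in 15F and 40.4 in 16F, and in VSG at 72.9 CPM in mouse 1F, 83.1 in 8F, 84.4 in 11F and 100.4 in 18F. Every Sham-WM library lay below every other library, while VSG and Sham-Ad lib overlapped. Pnpla2 was 2.09-fold lower in Sham-WM than in Sham-Ad lib (log2 -1.07 ± 0.13, edgeR adjusted p = 0.000509) and 1.92-fold higher in VSG than in Sham-WM (log2 0.94 ± 0.13, edgeR adjusted p = 0.000753). The VSG and Sham-Ad lib means, 85.2 ± 11.4 and 92.9 ± 1.47 CPM (SD, n = 4), differed by log2 -0.13 with an interval of -0.40 to 0.15 (edgeR adjusted p = 0.572). The calls on both lipases were kept in all 12 fits that left out 1 library.

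Within Sham-WM, mouse 9F had the highest Pnpla2 level (56.9 CPM) and the lowest Pnpla3 level (4.76 CPM). Mouse 15F, with the most Pnpla3 (14.8 CPM), was at 40.8 CPM of Pnpla2, close to mice 2F and 16F. The RPKM of Pnpla3 was 0.163 to 0.711 of that of Pnpla2 in Sham-WM livers and at most 0.0168 of it in the 8 others.

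**Figure D2:**
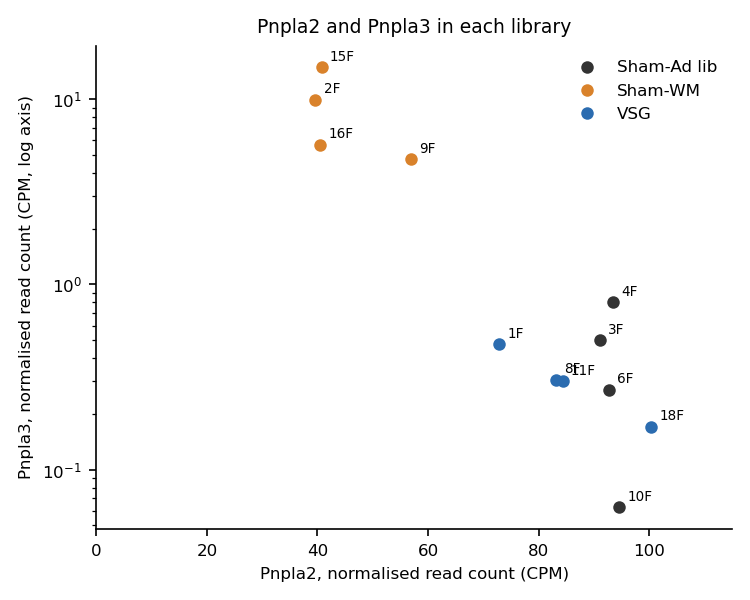
Pnpla2 (x axis, CPM) against Pnpla3 (y axis, CPM on a log axis) in each of the 12 libraries, labelled by mouse and coloured by group. The 4 Sham-WM libraries sit apart at the upper left, at 39.6–56.9 CPM of Pnpla2 and 4.76–14.8 CPM of Pnpla3, and the VSG and Sham-Ad lib libraries share the lower right.

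Of the regulators of Pnpla2, the activator Abhd5 (chr9:122351608-122381524, plus strand) hardly varied. Its range was 20.3–27.3 CPM in Sham-Ad lib, 22.4–25.1 with Sham-WM and 19.0–24.9 after VSG, and the groups overlapped throughout. The log2 fold change from Sham-Ad lib was -0.01 for Sham-WM, with an interval of -0.26 to 0.24. For VSG it was -0.07, with an interval of -0.32 to 0.17. A difference of the size seen in Pnpla2 with Sham-WM, log2 -1.07, lies outside both intervals. The Pnpla2 difference after VSG, log2 -0.13, lies within the VSG interval.

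G0s2 (chr1:193272161-193273217, minus strand), an inhibitor that binds the lipase directly, varied widely between mice in VSG, with an SD of 78.3% of the mean. It stood at 108.4 CPM in Sham-Ad lib mouse 3F, 62.9 in 4F, 164.0 in 6F and 79.9 in 10F. In Sham-WM it was 65.1 CPM in mouse 2F, 63.5 in 9F, 57.8 in 15F and 85.6 in 16F, and in VSG 26.1 CPM in mouse 1F, 41.0 in 8F, 88.8 in 11F and 13.1 in 18F. Of the VSG mice, 3 lay below every other library and mouse 11F lay among the sham mice. VSG was 2.46-fold below Sham-Ad lib in mean, with log2 -1.30 ± 0.45 (edgeR adjusted p = 0.112), which did not pass the test. Without mouse 11F the difference was log2 -1.97 (edgeR adjusted p = 0.0469), and the fits that left out 1 library gave adjusted p-values from 0.0469 to 0.296. Against Sham-WM, VSG was at log2 -0.69 (edgeR adjusted p = 0.263), and at -1.34 without mouse 11F (edgeR adjusted p = 0.0228, range 0.0228 to 0.463 over those fits).

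Hilpda (chr6:29272488-29275446, plus strand), an inhibitor of the same lipase that is induced by low oxygen and by fatty acids, was low in all groups. Its mean was 1.83 ± 0.685 CPM in Sham-Ad lib, 1.68 ± 0.675 with Sham-WM and 2.36 ± 0.785 after VSG (SD, n = 4), from 20 to 53 counts per library. The groups overlapped, and the log2 fold changes of VSG were 0.35 against Sham-Ad lib (interval -0.39 to 1.1) and 0.48 against Sham-WM (interval -0.27 to 1.23).

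The RNA level of each regulator relative to the lipase within a library is given as a ratio of RPKM, with no test. G0s2 to Pnpla2 was 3.88 ± 1.68 in Sham-Ad lib, 5.46 ± 1.46 with Sham-WM and 1.76 ± 1.36 after VSG (SD, n = 4). All 4 Sham-WM livers, at 3.87 to 7.35, lay above all 4 VSG livers, at 0.452 to 3.65, and Sham-Ad lib livers, at 2.33 to 6.14, overlapped with both. Abhd5 to Pnpla2 was 0.131 ± 0.0161 in Sham-Ad lib, 0.278 ± 0.0371 with Sham-WM and 0.139 ± 0.0321 after VSG, with Sham-WM above both other groups in every mouse. Since Abhd5 hardly varied, this ratio restates the difference in Pnpla2 and is not a further result. Hilpda to Pnpla2 had means of 0.0538, 0.105 and 0.0777 in the same order, and each pair of groups overlapped.

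**Figure D3:**
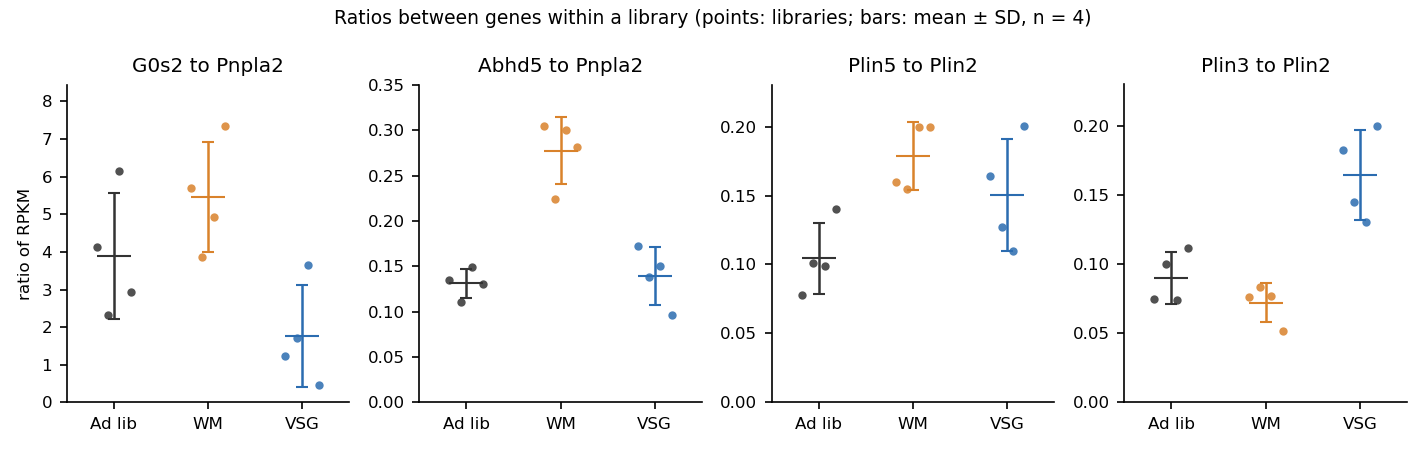
Ratios of RPKM within each library by group (points: libraries; bars: mean ± SD, n = 4). The ratio of Abhd5 to Pnpla2 is separate in Sham-WM (0.224 to 0.305), which restates the difference in Pnpla2. The ratio of Plin3 to Plin2 is separate in VSG (0.130 to 0.200).

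Among the coat proteins, Plin5 and Plin3 moved in opposite directions in Sham-WM. Plin5 (chr17:56111601-56117596, minus strand), the perilipin of oxidative tissues that holds droplets near mitochondria and restrains lipolysis, stood at 25.6 CPM in Sham-Ad lib mouse 3F, 32.9 in 4F, 35.2 in 6F and 29.9 in 10F. In Sham-WM it was 44.5 CPM in mouse 2F, 40.7 in 9F, 41.0 in 15F and 53.2 in 16F, and in VSG 25.3 in mouse 1F, 26.4 in 8F, 23.7 in 11F and 28.7 in 18F. The 4 Sham-WM livers were above all others. The rise over Sham-Ad lib was 1.45-fold (log2 0.54 ± 0.12, edgeR adjusted p = 0.0201), and VSG was 1.72-fold below Sham-WM (log2 -0.78 ± 0.12, edgeR adjusted p = 0.00139). With RUVs factors, which remove variation estimated between replicates, the latter was log2 -0.69 and no longer passed (edgeR adjusted p = 0.0551, the highest of 8 other settings, the lowest being 2.9e-07). VSG against Sham-Ad lib gave log2 -0.25 with an interval of -0.51 to 0.02 (edgeR adjusted p = 0.24). The rise in Sham-WM did not pass without Sham-Ad lib mouse 3F, Sham-Ad lib mouse 10F or Sham-WM mouse 16F, with adjusted p of 0.0608, 0.0703 and 0.0699, and it passed in the remaining 9 of these fits.

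Plin3 (chr17:56277476-56292873, minus strand), which moves from the cytosol to newly formed droplets, was 44.2 CPM in Sham-Ad lib mouse 3F, 58.9 in 4F, 47.9 in 6F and 43.1 in 10F. It was 38.4 CPM in Sham-WM mouse 2F, 40.0 in 9F, 28.7 in 15F and 25.0 in 16F, and 50.9 in VSG mouse 1F, 54.5 in 8F, 51.1 in 11F and 51.9 in 18F. Sham-WM was below both other groups in every mouse, and the VSG mice had an SD of 3.21% of their mean. Sham-WM was 1.47-fold below Sham-Ad lib (log2 -0.55 ± 0.15, edgeR adjusted p = 0.0414). That call passed in 4 of 12 when 1 library was dropped: without VSG mouse 8F or 11F or without Sham-WM mouse 2F or 9F. In the other 8 its adjusted p was between 0.0523 and 0.133. VSG was 1.58-fold above Sham-WM (log2 0.66 ± 0.15, edgeR adjusted p = 0.00765), a call kept in all 12 but lost with RUVs factors of unwanted variation (log2 0.46, edgeR adjusted p = 0.247, in a range of 0.00067 to 0.247 over 8 other settings). Against Sham-Ad lib, VSG was at log2 0.10 with an interval of -0.22 to 0.42.

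Plin2 (chr4:86648386-86670060, minus strand), a coat protein that is stable when bound to droplets, had its lowest levels in VSG. It stood at 550.4 CPM in Sham-Ad lib mouse 3F, 547 in 4F, 601 in 6F and 359 in 10F. In Sham-WM it was 469.7 CPM in mouse 2F, 443 in 9F, 346 in 15F and 448 in 16F, and in VSG 259 CPM in mouse 1F, 349 in 8F, 363 in 11F and 241 in 18F. Sham-Ad lib mouse 10F was within the VSG range, so the groups overlapped. VSG was 1.70-fold below Sham-Ad lib in mean (log2 -0.76 ± 0.18, interval -1.16 to -0.37), with an edgeR adjusted p of 0.0573, just outside the threshold. DESeq2, the tool of the study, gave log2 -0.79 with an adjusted p of 0.0020, here without the batch factors that the study also used. Over 8 other settings the adjusted p ranged from 0.0020 to 0.432, the highest being edgeR with RUVs factors. Sham-WM was at log2 -0.27 against Sham-Ad lib (edgeR adjusted p = 0.438), and VSG at log2 -0.49 against Sham-WM (edgeR adjusted p = 0.0614). The latter passed with DESeq2 (adjusted p = 0.0239, in a range of 0.0239 to 0.355 over 8 other settings) and in 3 of 12 edgeR fits with a library dropped. As a ratio of RPKM, Plin3 to Plin2 was 0.164 ± 0.0322 in VSG, above Sham-Ad lib at 0.0899 ± 0.0188 and Sham-WM at 0.0721 ± 0.0139 in every mouse. Plin5 to Plin2 had means of 0.105 in Sham-Ad lib, 0.178 with Sham-WM and 0.150 after VSG, and its VSG values overlapped with both sham groups.

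Fitm2 (chr2:163466379-163472629, minus strand), an endoplasmic reticulum enzyme needed for droplets to bud, was lower after both treatments. It stood at 84.2 CPM in Sham-Ad lib mouse 3F, 55.1 in 4F, 90.0 in 6F and 81.3 in 10F. In Sham-WM it was 51.2 CPM in mouse 2F, 50.7 in 9F, 43.3 in 15F and 49.7 in 16F, and in VSG 39.8 CPM in mouse 1F, 46.5 in 8F, 45.6 in 11F and 49.5 in 18F. All 8 treated mice lay below all 4 Sham-Ad lib mice, the nearest being mouse 4F, and the treated groups overlapped. The fall was 1.59-fold in Sham-WM (log2 -0.67 ± 0.14, edgeR adjusted p = 0.0124) and 1.71-fold in VSG (log2 -0.77 ± 0.14, edgeR adjusted p = 0.0435). These comparisons share the same 4 control mice. VSG against Sham-WM was at log2 -0.10 with an interval of -0.40 to 0.20. The call in Sham-WM was kept in all 12. The call in VSG passed in 4 of the 12, without Sham-Ad lib mouse 4F or VSG mouse 8F, 11F or 18F, and had an adjusted p between 0.0559 and 0.155 in the other 8. It passed in 5 of 8 other settings, with an adjusted p from 0.00015 with DESeq2 to 0.405 with RUVs factors in edgeR (log2 -0.48).

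Fitm1 (chr14:55575617-55576954, plus strand), the member of that family best known from skeletal muscle, was present in every liver at 13.2 to 36.8 CPM. The 9 skeletal muscle markers together summed to between 0.102 and 0.844 CPM per library, with Ckm and Tnnc2 at 0. Fitm1 was 25.9 ± 4.28 CPM in Sham-Ad lib, 21.2 ± 4.31 with Sham-WM and 20.8 ± 10.8 after VSG (SD, n = 4). The VSG mean held 3 mice at 13.2 to 16.9 CPM and mouse 11F at 36.8, the highest of all 12. No comparison passed, with log2 fold changes of -0.33 for VSG (edgeR adjusted p = 0.478) and -0.29 for Sham-WM (edgeR adjusted p = 0.589) against Sham-Ad lib.

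**Figure D4:**
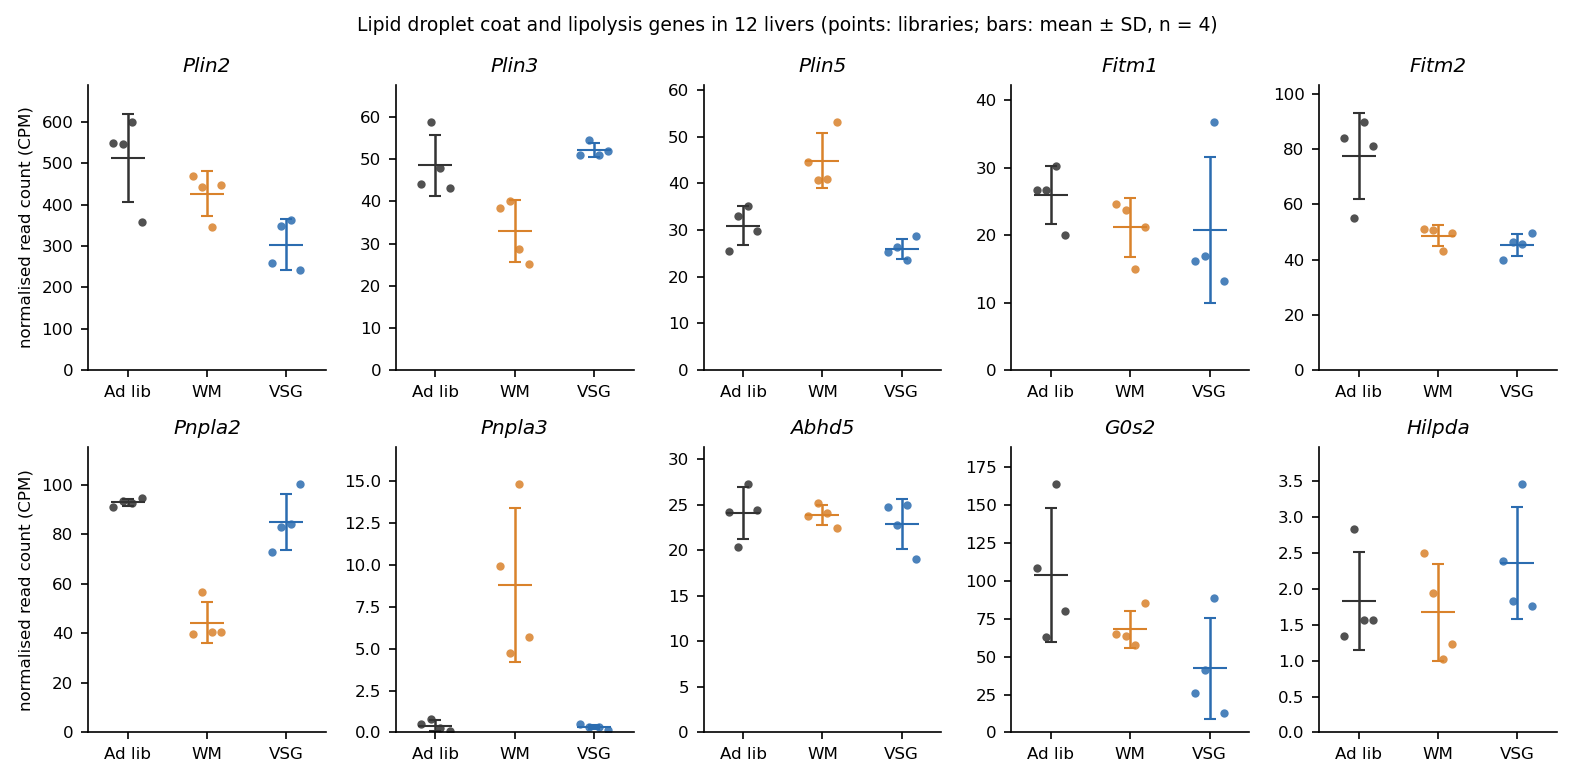
Normalised read count (CPM) of each gene by group (points: libraries; bars: mean ± SD, n = 4; Ad lib is Sham-Ad lib and WM is Sham-WM; each axis starts at 0). Sham-WM stands apart from both other groups in Pnpla2, Pnpla3, Plin3 and Plin5, and Sham-Ad lib stands apart in Fitm2.

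By comparison, the counts were as follows. For VSG against Sham-Ad lib, 1 of the 10 genes passed (Fitm2, lower), beside 0.751% of the 13054 genes tested (0.467% higher and 0.283% lower). The median log2 fold change of the 10 was -0.29, with 8 of the 10 below 0, and that of all genes was 0.03. For Sham-WM against Sham-Ad lib, 5 of the 10 passed, beside 6.99% of all genes (3.53% higher and 3.45% lower): Pnpla3 and Plin5 rose, and Pnpla2, Fitm2 and Plin3 fell. The median absolute log2 fold change of the 10 was 0.55 there, beside 0.21 over all genes. For VSG against Sham-WM, 4 of the 10 passed, beside 26.9% of all genes (15.0% higher and 11.9% lower): Pnpla2 and Plin3 were higher in VSG, and Pnpla3 and Plin5 were lower. The genes whose groups did not overlap were the ones that passed, and such genes made up 9.21%, 17.6% and 26.2% of all genes in the 3 comparisons.

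**Figure D5:**
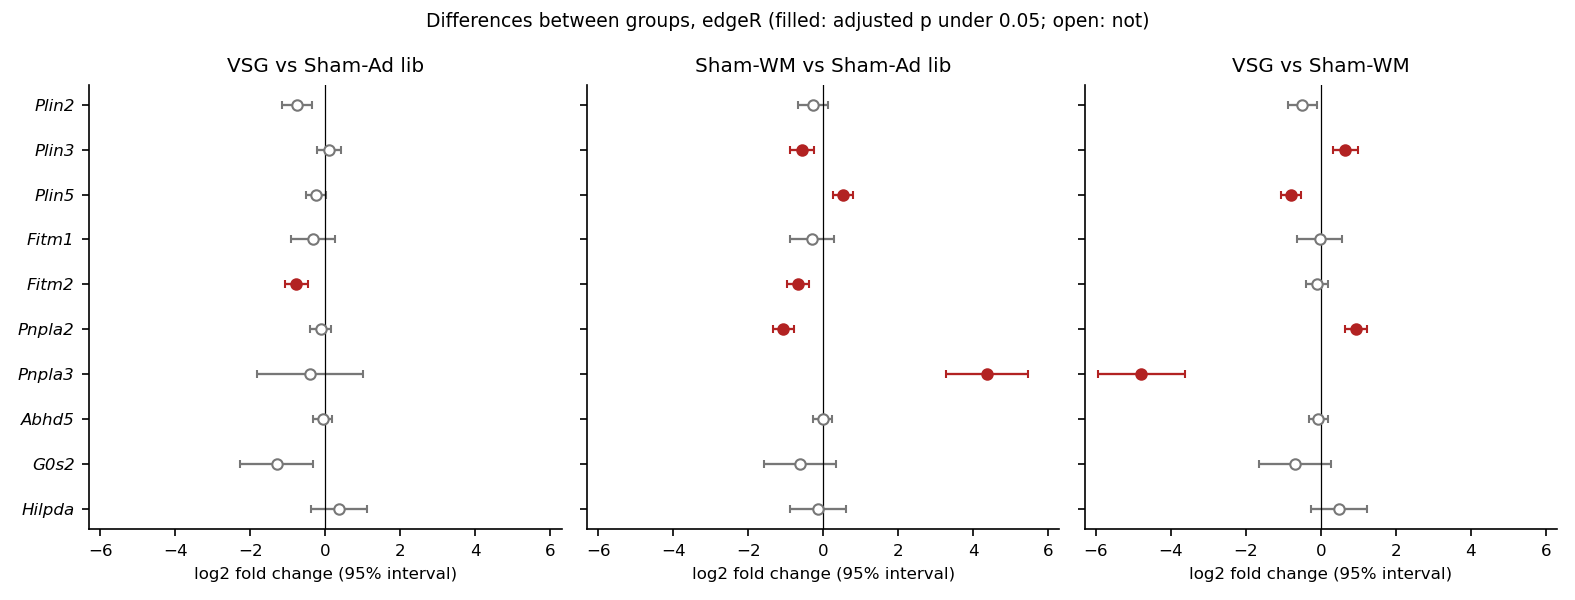
Log2 fold change of each gene with its 95% interval in the 3 comparisons, from edgeR; filled red points have an adjusted p under 0.05 over all 13054 genes. Pnpla3 differs by 4.37 in Sham-WM against Sham-Ad lib and by -4.78 in VSG against Sham-WM, and the first comparison holds 1 filled point, Fitm2.

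The wider droplet machinery was read from a list of 30 other lipid droplet and lipolysis genes, of which 29 were tested. In Sham-WM against Sham-Ad lib, 1 rose and 3 fell, beside 3.53% and 3.45% of all genes, with a median log2 fold change of 0.02. Lipe, hormone-sensitive lipase, which acts after Pnpla2 in the same pathway, fell from 23.8 ± 4.74 to 10.6 ± 3.78 CPM (SD, n = 4; log2 -1.16 ± 0.24, edgeR adjusted p = 0.012). Cidec, which fuses droplets into larger ones, fell from 14.9 ± 12.2 to 2.84 ± 1.05 CPM (log2 -2.39, edgeR adjusted p = 0.0201), and the coat protein Plin4 fell from 21.3 ± 12.3 to 6.04 ± 3.56 CPM (log2 -1.83, edgeR adjusted p = 0.021). For Cidec and Plin4 the Sham-Ad lib mice were widely spread and overlapped with Sham-WM. Lipa, the lysosomal acid lipase, rose from 266 ± 13.5 to 346 ± 27.5 CPM (log2 0.38 ± 0.10, edgeR adjusted p = 0.0421).

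In VSG against Sham-Ad lib, none of the 29 passed by edgeR, 10 had an unadjusted p under 0.05, and DESeq2 called 6, all lower. The log2 fold change was below 0 for 23 of the 29, beside 46.8% of all genes, with a median of -0.19. In VSG against Sham-WM, 2 were higher and 5 lower, with a median of -0.26, and 7 of 29 is near the 26.9% of all genes that passed there, so the count says nothing particular of the list. Ces1d, a carboxylesterase that mobilises triglyceride for secretion, was 417 ± 327 CPM in VSG and 1154 ± 67.1 in Sham-WM (log2 -1.47 ± 0.43, edgeR adjusted p = 0.025). Its relative Ces1g (log2 -1.22 ± 0.25, edgeR adjusted p = 0.00482) and the lipid transfer protein gene Vps13a (log2 -1.41 ± 0.25, edgeR adjusted p = 0.00237) were also lower. Tmem159, whose product promethin works with seipin where droplets form, was higher, at 2.17 ± 0.285 against 1.02 ± 0.338 CPM (log2 1.08 ± 0.32, edgeR adjusted p = 0.0257).

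Programmes that are known to govern these genes were counted in the same fit, to be read against the shares of all genes given above: 0.751% for VSG and 6.99% for Sham-WM against Sham-Ad lib, and 26.9% for VSG against Sham-WM, of which 15.0% were higher and 11.9% lower. Whether any of these programmes had a part in the changes of the 10 genes was not tested. Of 12 lipogenic genes, 5 rose and none fell in Sham-WM against Sham-Ad lib, with a median log2 fold change of 0.92, beside the rise of Pnpla3. In VSG, 2 of the 12 fell against Sham-Ad lib (9 by DESeq2, median -1.13) and 11 of the 12 were lower than in Sham-WM (median -1.98). The study had already reported Acaca, Acacb, Acly, Fasn, Elovl6 and Me1 of this list as lower after VSG and higher in Sham-WM. That came from these same data, so the lipogenic counts are not separate evidence. Of 21 PPAR alpha response genes, none passed in VSG against Sham-Ad lib by edgeR (10 at an unadjusted p under 0.05, 7 lower by DESeq2, median -0.51), 1 rose and 1 fell in Sham-WM (median -0.02), and 7 were lower in VSG than in Sham-WM (median -0.24). Of 9 genes of PPAR gamma in steatosis, 1 fell in VSG (Cfd, median of the list -0.82) and 3 fell in Sham-WM (Cfd, Cidec and Plin4, median -0.49). None of the 9 passed between the treatments by edgeR (3 at an unadjusted p under 0.05, 1 higher by DESeq2, median -0.05). Cidec and Plin4 are the same genes counted above among the other droplet genes. Of 8 hypoxia response genes, none passed in VSG by edgeR (1 at an unadjusted p under 0.05, 1 higher by DESeq2, median 0.11), 1 fell in Sham-WM (median 0.01) and 2 were higher in VSG than in Sham-WM (median 0.25), near the share of all genes. The marker lists gave these counts: of 10 macrophage markers, 2 were higher in VSG than in Sham-Ad lib and 10 higher than in Sham-WM, and of 8 neutrophil markers tested, 6 and 8. Of 9 stellate cell markers, 1 rose with Sham-WM and 2 were lower after VSG than in Sham-WM, and of 8 endothelial markers, 1 was lower in that comparison, near the share of all genes. Of 8 hepatocyte markers, 1 was higher and 2 were lower in VSG than in Sham-WM, and none passed against Sham-Ad lib. Of 5 adipocyte markers tested, 3 fell with Sham-WM (Cfd, Cidec and Lipe, each also on another list here). Against Sham-Ad lib, 1 of the 5 fell after VSG (Cfd), and 2 were higher in VSG than in Sham-WM (Adrb3 and Lipe).

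Reads could in principle be shared with neighbours or relatives. The longest exact run of bases shared by transcripts of 2 members was 28, between Plin2 and Plin5, and it was 14 between Pnpla2 and Pnpla3, both shorter than a read. The libraries were directional, but whether counting used the strand is not given in the sources used here. Fitm1 overlaps exon bases of an antisense gene, Gm15932, Fitm2 overlaps 227 bases of 2310001K24Rik and Abhd5 overlaps 950 of A730085K08Rik. Those 3 antisense genes had mean counts of 3.33, 1.42 and 0.5 per library. G0s2 lies inside Lamb3 on the opposite strand and shares no exon bases with it.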

How the data were processed

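Poly(A) RNA from 12 mouse livers was sequenced as paired reads. Reads were mapped by the authors to mm10 (TopHat2 2.1.1), assigned to genes (featureCounts) and deposited as whole-number counts without normalisation; all 12 columns were used. Gene symbols and positions came from GENCODE M21, which 45229 of the 46078 genes matched, and promoters from RefSeq (GRCm38.p6).

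Genes were kept with edgeR's filterByExpr (minimum count 10, minimum total 15). Groups were compared in 1 fit of all 12 libraries with TMM factors (0.879 to 1.04) and edgeR's quasi-likelihood test (edgeR 4.0.16, R 4.3.3). P-values were adjusted by Benjamini-Hochberg over 13054 genes and called at 0.05. CPM and RPKM were computed from the counts. Floors of 3 counts cover counting error only. No 2 replicates agreed within sampling noise: the lowest chi-square per gene between them was 11.8.

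The 10 genes, the gene lists and the tests were chosen with earlier results of these data known. All 10 were named throughout, with at most 4 called genes per comparison from the list of other droplet genes, by size, and for each of the 10 the 3 genes most alike in pattern.

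Alternatives were DESeq2 1.42.0, its size factors, upper quartile scaling, other filters, fits of 2 groups, RUVs and RUVr factors of unwanted variation (k of 2), groups taken from the second label field, and single libraries left out. The study reports that it took out batch variation with RUVSeq at k of 2, which the main fit here did not do. The main fit, DESeq2, RUVs and RUVr were also run on simulated counts with 200 genes changed in VSG. Only VSG against Sham-Ad lib was scored there. That simulation held no batch or order effect, so it cannot speak to either.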

Additional observations from a re-analysis of the deposited data

Results flagged for a closer look

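Each of the 10 genes was examined in each group of 4 libraries for a mouse far from the other 3, by Dixon's ratio of the gap to the whole range. Of 30 such groups, 3 were past the 95% limit, where chance alone gives about 1 in 20.

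Sham-WM mouse 9F had 56.9 CPM of Pnpla2, above 39.6 to 40.8 CPM in the other 3 mice of its group (ratio 0.933). Without it the log2 fold change of Pnpla2 in Sham-WM against Sham-Ad lib was -1.21 in place of -1.07.

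VSG mouse 11F had 36.8 CPM of Fitm1, above 13.2 to 16.9 CPM in the other VSG mice (ratio 0.843). The same library had the lowest TMM factor (0.879), the fewest counts (15122520) and the highest G0s2 of its group (88.8 CPM). Whether these are linked was not tested.

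Sham-Ad lib mouse 4F had 2.84 CPM of Hilpda, above 1.34 to 1.57 CPM in the other 3 (ratio 0.848), from 53 counts. This mouse also had the lowest Fitm2 (55.1 CPM) and the highest macrophage marker sum (598 CPM) of its group; a link was not tested.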

How the results depend on the processing

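Under 8 settings other than the regrouping and the left-out libraries, 217 of 236 values kept their direction and call, 7 gained a call, 5 lost one and 7 reversed. The calls on Pnpla2 and Pnpla3 held under each of these that tested them. The count of the 10 genes called in VSG against Sham-Ad lib was 1, and became 2 with DESeq2, 3 without a count filter and with RUVr, and 0 with RUVs, with 10 counts required in every library and with only 2 groups fitted. Over all genes that comparison gave 98 calls, and 1202 with DESeq2, 628 unfiltered, 3016 with RUVr, 6 with RUVs, and 0 with the stricter filter or 2 groups (2755 and 2523 genes at an unadjusted p under 0.05). Sham-WM against Sham-Ad lib gave 912, and 1445 with DESeq2, 1399 with 2 groups, 2193 with RUVr and 1723 with RUVs. VSG against Sham-WM gave 3509, and 5491 with RUVr and 518 with RUVs, where Pnpla2 and Pnpla3 (2 of the 10) stayed called and Plin3 and Plin5 did not. Leaving out 1 library gave 0 to 2 of the 10 and 0 to 1089 genes for VSG against Sham-Ad lib, 3 to 5 and 424 to 1311 for Sham-WM against Sham-Ad lib, and 4 to 6 and 2196 to 3868 for VSG against Sham-WM.

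Grouping by the second label field gave 0 calls in each comparison, of the 10 and of all genes, and reversed 16 log2 fold changes: for VSG against Sham-Ad lib Plin2 0.0045, Fitm2 0.032 and Pnpla2 0.23; for Sham-WM against Sham-Ad lib Plin2 0.36, Plin3 0.45, Plin5 -0.13, Fitm1 0.069, Fitm2 0.14, Pnpla2 0.33, Pnpla3 -1.77, G0s2 0.087 and Hilpda 0.18; for VSG against Sham-WM Plin3 -0.12, Pnpla2 -0.10, Pnpla3 0.86 and Hilpda -0.036. RUVs reversed Plin3 (-0.053) and Hilpda (-0.33) in VSG against Sham-Ad lib, Abhd5 (0.015) and Hilpda (0.078) in Sham-WM against Sham-Ad lib, and Fitm2 (0.23) and Hilpda (-0.41) in VSG against Sham-WM. Upper quartile scaling reversed Fitm1 (0.0020) in VSG against Sham-WM. None of these had passed except Fitm2, Plin3, Plin5, Pnpla2 and Pnpla3 under the regrouping. Leaving out 1 library reversed 12 of 360, none of them called: Pnpla3 (-0.76 to 0.13) and Abhd5 (-0.15 to 0.0032) in VSG against Sham-Ad lib, Abhd5 (-0.084 to 0.056) and Hilpda (-0.38 to 0.17) in Sham-WM against Sham-Ad lib, and Fitm1 (-0.45 to 0.13) and Abhd5 (-0.11 to 0.013) in VSG against Sham-WM. The causes were not tested.

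No paired analysis was possible because the groups share no replicate numbers. Depth limits Pnpla3 outside Sham-WM (1 to 15 counts) and Hilpda (20 to 53).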

Other observations

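For each of the 10 genes, the genes whose log2 CPM followed it most closely over the 12 libraries are given as a description. The libraries fall into 3 treatment groups and share the scaling, so a high Pearson r can come from the group means alone. Pnpla2 was most like Gabarapl1 (r = 0.969), a gene of autophagosome formation, followed by Enpp5 and Tbc1d10a. Pnpla3 was most like Txnrd1 (0.962), the cytosolic thioredoxin reductase, then Leo1 and Mybbp1a. Plin5 was nearest to Ints2 (0.969), Ipo13 and the glycogen-targeting subunit Ppp1r3b, and Plin3 to Tbc1d17 (0.948), Hps1 and Tmem216. Fitm2 was nearest to Pex19 (0.963), needed to build peroxisomes, then Usp22 and Lmbrd1. Plin2 and G0s2 had the same nearest gene, the mitochondrial thioesterase Acot2 (0.909 and 0.922), followed by Fads3 and Clstn3 for Plin2 and by Kcnk10 and Suco for G0s2. Hilpda was nearest to Mecr (0.947), Ndufaf8 and Coq7, and Fitm1 to Nt5dc1 (0.927), Vps26a and Spc24. Abhd5, which hardly varied, reached 0.742 at most, with Nat1, before Rars2 and Rtl8b.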
